A study of Rattus norvegicus with 18 samples.

Results

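The genes of collagens, laminins and integrins were taken by name from the expression tables of a study of rat heart-derived cells, as all chains called Col, Lam, Itga or Itgb with a number or letter code. The rule found 58 of 17455 genes: 28 collagen chains, 9 laminin chains, 13 integrin alpha chains and 8 integrin beta chains. Some chains of these families, among them Lamb1, Itgav and Col4a2, were not among the genes found. All counts and medians therefore cover the chains found and not the whole families. Collagens and laminins are the ligands and integrins their receptors.

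The cells were H9c2, a myoblast line grown from rat heart and labelled wild type, so all groups are 1 line without donors. They had been treated with bufalin, treated with periplocin, or kept as controls. The assay was MeRIP-seq, where RNA fragments that carry N6-methyladenosine (m6A) are pulled down by an antibody (IP) and set beside an input library, with 3 IP and 3 input libraries in each of the 3 conditions. The design text asks whether m6A takes part in the cardiotoxicity of the compounds. The labels give no dose or time, nor whether replicates came from separate cultures, so p-values measure only the spread between these samples, which may be technical.

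Collagens wind from chains into triple helices. The fibrillar ones (types I, II, III, V, XI, XXIV and XXVII) form fibrils, and type IV forms the sheet of the basement membrane, where laminins, cross-shaped trimers of an alpha, a beta and a gamma chain, form a second network. Integrins are membrane receptors of 1 alpha and 1 beta chain that join this matrix to the actin skeleton. The alpha chains of Itga1, Itga10 and Itga11 bind collagen, those of Itga3, Itga6 and Itga7 bind laminin, and those of Itga4, Itga5 and Itga8 bind mainly fibronectin and related proteins. All of these alpha chains pair with the beta chain of Itgb1, while Itga6 can also pair with Itgb4.

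The deposited tables hold 1 value per gene and comparison, so no value of a single library can be shown. Levels below are normalized counts fitted for each condition from a gene's mean and fold change, and they carry no error of their own. Errors are the authors' standard errors (SE) of the log2 fold change, and intervals are 95% Wald intervals from them. Levels of different genes cannot be set against each other, because they are not per length. Both compounds were compared with the same controls. In these bulk samples fewer cells of a kind and less RNA per cell cannot be told apart. Of 10 skeletal myoblast markers, 6 had a fitted control level of at least 10, among them Myod1 at 672, Cdh15 at 2223 and Des at 1002, while Myf5 and Pax7 were listed at 0. Of 10 cardiomyocyte markers 7 reached that level, among them Tnnt2 at 4549, Myh6 at 313 and Nkx2-5 at 92, while Actc1 and Myl7 were listed at 0.

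Of the 58 genes, 6 were listed at 0 in both tables: Col4a4, Col9a1, Col13a1, Col23a1, Lama1 and Itgb3. Itgam, an alpha chain of leukocytes, was listed at 0 in the periplocin table. Of the rest, 51 genes had p-values in both tables, 42 had a mean of 10 or more normalized counts in both, and 30 a mean of 200 or more. These 30 comprised 13 collagens, 6 laminins and 11 integrins. The leukocyte chains Itgad, Itgal, Itgam and Itgae and their partners Itgb2 and Itgb7 stayed under a mean of 200 in both tables, and so did Col2a1, the collagen of cartilage.

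Itga4 with periplocin was the 1 gene of these families that passed the test against control. Its fitted level was 2690 normalized counts in periplocin cells and 3235 in control cells. That is 0.832-fold (interval 0.757 to 0.913), a fall by 0.27 ± 0.07 (SE, log2) in the authors' deposited table, with a Benjamini-Hochberg adjusted p of 0.0260 from the DESeq2 Wald test. In bufalin cells the level was 3067, against 3340 in control cells of that table, and the authors' deposited table gives a log2 change of -0.12 ± 0.07 with an adjusted p of 0.552. Itga4 makes the alpha chain that binds fibronectin and the endothelial adhesion molecule VCAM. It was 1 of 51 genes with an adjusted p, and 0.538% of all 12445 genes with one passed in that comparison, 0.0241% lower.

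With bufalin, 0 of the 24 genes with an adjusted p in the authors' deposited table passed, where 0.301% of all 3321 such genes did. At an unadjusted p under 0.05 of the same DESeq2 test there were 3 of 43 genes whose mean was 10 or more: Itga6 and Col8a1 with lower and Lamc1 with higher estimates. Over all genes with that mean the share was 5.31%, 3.24% higher and 2.07% lower. With periplocin 5 of 43 passed the unadjusted threshold, Itga4, Itga6 and Itga7 with lower and Col16a1 and Col27a1 with higher estimates, where 6.53% of all genes did, 4.25% higher and 2.28% lower. The bufalin count is close to the share of all genes, the periplocin count lies above it by a few genes, and neither was tested.

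The 7 genes named by the unadjusted test include 5 with an entry among RefSeq promoters of assembly GRCr8, which matched 43 of the 58 genes. Their 250 bases before the annotated start are shown because they are the stretches just before the start of the genes with the lowest p-values. They run 5′ to 3′ on the gene's strand, and capitals mark the GC box, GGGCGG on either strand, a letter pattern that Sp1-type factors are known to bind. Col27a1 lies at chr5:81662658-81662907 (plus), Col8a1 at chr11:56246532-56246781 (plus), Col16a1 at chr5:147672846-147673095 (plus), Lamc1 at chr13:68051987-68052236 (minus) and Itga4 at chr3:84569765-84570014 (plus).
Col27a1: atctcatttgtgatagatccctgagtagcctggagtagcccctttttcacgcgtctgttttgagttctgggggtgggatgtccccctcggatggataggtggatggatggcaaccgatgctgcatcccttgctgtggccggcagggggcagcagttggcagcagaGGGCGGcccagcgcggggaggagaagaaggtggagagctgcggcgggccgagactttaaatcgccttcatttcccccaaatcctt
Col8a1: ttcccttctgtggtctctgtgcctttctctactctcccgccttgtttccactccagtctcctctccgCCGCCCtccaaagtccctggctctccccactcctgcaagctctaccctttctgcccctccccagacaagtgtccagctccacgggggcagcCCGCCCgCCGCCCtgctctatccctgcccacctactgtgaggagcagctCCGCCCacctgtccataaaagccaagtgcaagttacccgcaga
Col16a1: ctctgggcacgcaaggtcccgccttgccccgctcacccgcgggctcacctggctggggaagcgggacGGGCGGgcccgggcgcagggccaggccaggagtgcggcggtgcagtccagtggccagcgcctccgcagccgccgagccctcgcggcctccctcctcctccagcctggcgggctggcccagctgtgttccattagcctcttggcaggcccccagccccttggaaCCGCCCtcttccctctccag
Lamc1: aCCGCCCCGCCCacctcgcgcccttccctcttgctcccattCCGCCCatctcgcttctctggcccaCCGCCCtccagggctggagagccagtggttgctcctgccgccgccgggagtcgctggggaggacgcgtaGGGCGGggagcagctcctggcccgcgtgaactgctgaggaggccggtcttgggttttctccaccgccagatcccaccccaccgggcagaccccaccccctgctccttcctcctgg
Itga4: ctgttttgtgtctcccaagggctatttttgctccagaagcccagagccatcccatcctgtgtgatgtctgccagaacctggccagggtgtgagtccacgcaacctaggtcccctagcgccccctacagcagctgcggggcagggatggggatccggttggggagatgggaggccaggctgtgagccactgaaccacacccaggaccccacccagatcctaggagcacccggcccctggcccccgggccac

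Lamc1 held 5 GC boxes, 2 of which share a base, Col8a1 held 4, Col16a1 held 2 and Col27a1 held 1. Itga4 held none of the 4 motifs searched on both strands, which were the GC box, the CCAAT box, the TATA box with the letters TATAAA and the AP-1 pattern with the letters TGANTCA. GC boxes were found in 21 of the 43 promoters (48.8%), against 32.4% of all 27457. CCAAT was found in 9 (20.9%), against 34.3% of all. TATAAA was in 5 (11.6%), against 13.1% of all, and TGANTCA in 1, that of Lama3, against 6.36% of all. A match is a match of letters only.

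Most collagen estimates lay above control with bufalin, and none passed the test singly. Of 18 collagens whose mean was 10 or more, 15 had estimates above 0 and 3 below, with a median log2 change of 0.10, where 5338 of all 10674 genes with such a mean were above 0. With periplocin 13 of 18 were above 0, with a median of 0.05, and of the 13 collagens whose mean was 200 or more 8 were above 0, with a median of 0.01. The SEs of single collagens were as large as these medians (median SE 0.10 with bufalin and 0.07 with periplocin), and no test was made of the group. Among the 8 fibrillar collagens whose mean was 200 or more, all 8 bufalin estimates were above 0, between 0.0018 and 0.15. For periplocin 5 of the 8 were above 0.

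Col1a1 and Col1a2 make the chains of type I collagen, the main fibril of connective tissue. Col1a1 had a fitted level of 428019 normalized counts in bufalin cells and 397245 in control cells, 1.08-fold (interval 0.943 to 1.23). For periplocin its level was 381945, against 384900 in control cells (0.992-fold, interval 0.908 to 1.08). Both intervals include no change. Col1a2 was 1.05-fold (interval 0.936 to 1.18) with bufalin and 0.967-fold (interval 0.899 to 1.04) with periplocin. Col3a1, whose type III fibrils mix with type I, was 1.07-fold (interval 0.948 to 1.21) with bufalin and 1.04-fold (interval 0.952 to 1.13) with periplocin. The chains of type I and III thus differed from control by less than their intervals with either compound.

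Type V and XI chains sit inside type I and II fibrils and set their width. Col5a2 had 83965 normalized counts in bufalin cells and 78576 in control cells, a log2 change of 0.10 ± 0.05 in the authors' deposited table (unadjusted p = 0.0520, DESeq2). Its partner Col5a1 had 40693 in bufalin cells and 40644 in control cells, within an interval of 0.922-fold to 1.09-fold. Col5a3 was 1.11-fold (interval 0.971 to 1.28) and Col11a1 1.05-fold (interval 0.960 to 1.15) with bufalin. None of these 4 chains passed the test. Col27a1, the chain of a fibrillar collagen of cartilage, had 1342 normalized counts in periplocin cells and 1138 in control cells, 1.18-fold (interval 1.04 to 1.34). The authors' deposited table has it at 0.24 ± 0.09 (log2) with an unadjusted p of 0.0110 and an adjusted p of 0.453 by the DESeq2 Wald test. In bufalin cells its level was 1261, against 1175 in control cells.

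Other collagens went both ways. Col4a1, a chain of the basement membrane sheet, was 1.05-fold (interval 0.965 to 1.14) with bufalin and 1.01-fold (interval 0.954 to 1.07) with periplocin. Col8a1, a short-chain network collagen of vessel walls and some basement membranes, had 2290 normalized counts in bufalin cells and 2553 in control cells. Its change in the authors' deposited table was -0.16 ± 0.07 (log2, adjusted p = 0.503, DESeq2 Wald test) with bufalin, and with periplocin -0.07 ± 0.07. Col16a1, a collagen attached to fibrils and microfibrils, had 12689 normalized counts in periplocin cells and 11406 in control cells. That is 1.11-fold (interval 1.02 to 1.22), with an adjusted p of 0.571 in the authors' deposited table by the DESeq2 Wald test. Col8a1 with bufalin and Col16a1 with periplocin therefore passed only the unadjusted threshold.

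Fibroblast markers were read beside the collagens. Of 8 such markers 4 had a fitted control level of at least 10, Dcn, Lum and Tcf21 were listed at 0, and Vim made up most of their sum. The summed level was 95235 normalized counts in bufalin cells and 87126 in control cells, and 85279 in periplocin cells and 84413 in control cells of that table. With bufalin the markers did not move together. The mean over both groups was above the control level for Vim (72405, control 68248), Thy1 and Pdgfrb, and below it for S100a4 (8898, control 9180). The part of this sum in the collagen values was not tested.

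Laminin estimates lay on both sides of 0. Lamc1, the gamma chain of most laminin trimers, had 110388 normalized counts in bufalin cells and 102470 in control cells, 1.08-fold (interval 1.01 to 1.15). The authors' deposited table has it at 0.11 ± 0.05 (log2) with bufalin (unadjusted p = 0.0291, adjusted p = 0.503, DESeq2 Wald test) and -0.03 ± 0.03 with periplocin. The 3 alpha chains whose mean was 10 or more were Lama3, found in epithelial laminins, Lama4 and Lama5. With periplocin all 3 estimates were below 0, between -0.17 and -0.05 on the log2 scale, and with bufalin Lama4 and Lama5 were above 0 and Lama3 below. None of these alpha chain values passed even the unadjusted threshold. Lama5 had 26700 normalized counts in bufalin cells and 25646 in control cells, and 23944 in periplocin cells and 24849 in control cells. Lamb2 was 1.02-fold with either compound. Over the 8 laminins at that level of counts the median log2 change was 0.04 with bufalin and -0.0055 with periplocin.

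Most estimates of the integrin alpha chains lay below 0. Among the 8 whose mean was 200 or more, 6 had bufalin estimates below 0 (median -0.06, log2) and 7 had periplocin estimates below 0 (median -0.08). The median SE of these 8 was 0.06 with either compound. The 3 that bind mainly fibronectin and related proteins had the lowest medians, -0.12 with bufalin and -0.19 with periplocin. In the same order the medians were -0.02 and -0.05 for the 2 collagen-binding chains and -0.01 and -0.09 for the 3 laminin-binding chains. In the same band of means 15 of 19 ligand genes were above 0 with bufalin (median 0.07) and 10 of 19 with periplocin (median 0.01). Over all genes in that band, 50.8% were above 0 with bufalin and 48.8% with periplocin. All 11 integrins of that band lay much as the alpha chains did, with 3 above 0 with bufalin (median -0.03) and 2 with periplocin (median -0.06). Of the 3 beta chains in it, 1 was above 0 with either compound. The receptor side depends on the count filter. Over all 17 integrins whose mean was 10 or more, 8 bufalin estimates were above 0 and 9 below (median -0.0018). Over the 6 beta chains among them 4 were above 0 (median 0.05), with a median SE of 0.21 that reflects chains with low counts. The difference between ligand and receptor genes was not tested.

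Among the laminin receptors, Itga6 had 7082 normalized counts in bufalin cells and 7948 in control cells, 0.891-fold (interval 0.818 to 0.971). For periplocin its level was 7072, against 7701 in control cells (0.918-fold, interval 0.845 to 0.998). The log2 changes of Itga6 in the authors' deposited table were -0.17 ± 0.06 with bufalin (unadjusted p = 0.00829, adjusted p = 0.335) and -0.12 ± 0.06 with periplocin (unadjusted p = 0.0445, adjusted p = 0.742), by the DESeq2 Wald test. Both values were below control and passed only the unadjusted threshold, and since the controls are shared, they are not independent of each other. Itga7, the main laminin receptor of muscle, had 12732 normalized counts in periplocin cells and 13589 in control cells, 0.937-fold (interval 0.887 to 0.989), with an adjusted p of 0.546 in the authors' deposited table (DESeq2 Wald test). In bufalin cells it had 14756, against 14025 in control cells, 1.05-fold (interval 0.980 to 1.13). Itga3 was 0.991-fold (interval 0.926 to 1.06) with bufalin, and with periplocin it had 22851 normalized counts, against 22752 in control cells (interval 0.947-fold to 1.06-fold).

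Of the collagen receptors, Itga11 was 1.04-fold (interval 0.975 to 1.12) with bufalin and 0.962-fold (interval 0.905 to 1.02) with periplocin. Itga1 was 0.932-fold (interval 0.820 to 1.06) with bufalin and 0.966-fold (interval 0.856 to 1.09) with periplocin. Neither differed from control beyond its interval. Among fibronectin receptors, Itga5 was 0.999-fold with bufalin and 0.988-fold with periplocin. Itga8, a receptor of nephronectin, had 697 normalized counts in bufalin cells and 796 in control cells, and 677 in periplocin cells and 771 in control cells. Its intervals, 0.738 to 1.04 with bufalin and 0.744 to 1.03 with periplocin, include no change.

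The common beta chain Itgb1 had 60271 normalized counts in bufalin cells and 61607 in control cells, 0.978-fold (interval 0.918 to 1.04). For periplocin it had 56760, against 59690 in control cells, 0.951-fold (interval 0.902 to 1.002), with an unadjusted p of 0.0591 in the authors' deposited table (DESeq2). Itgb5, a partner in vitronectin receptors, was 1.04-fold with bufalin and 0.992-fold with periplocin. Itgb4, which joins laminin to keratin filaments in epithelia, was 0.934-fold (interval 0.746 to 1.17) with bufalin, and with periplocin it had 396.2 normalized counts, against 396.0 in control cells (interval 0.817-fold to 1.22-fold).

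**Figure D1:**
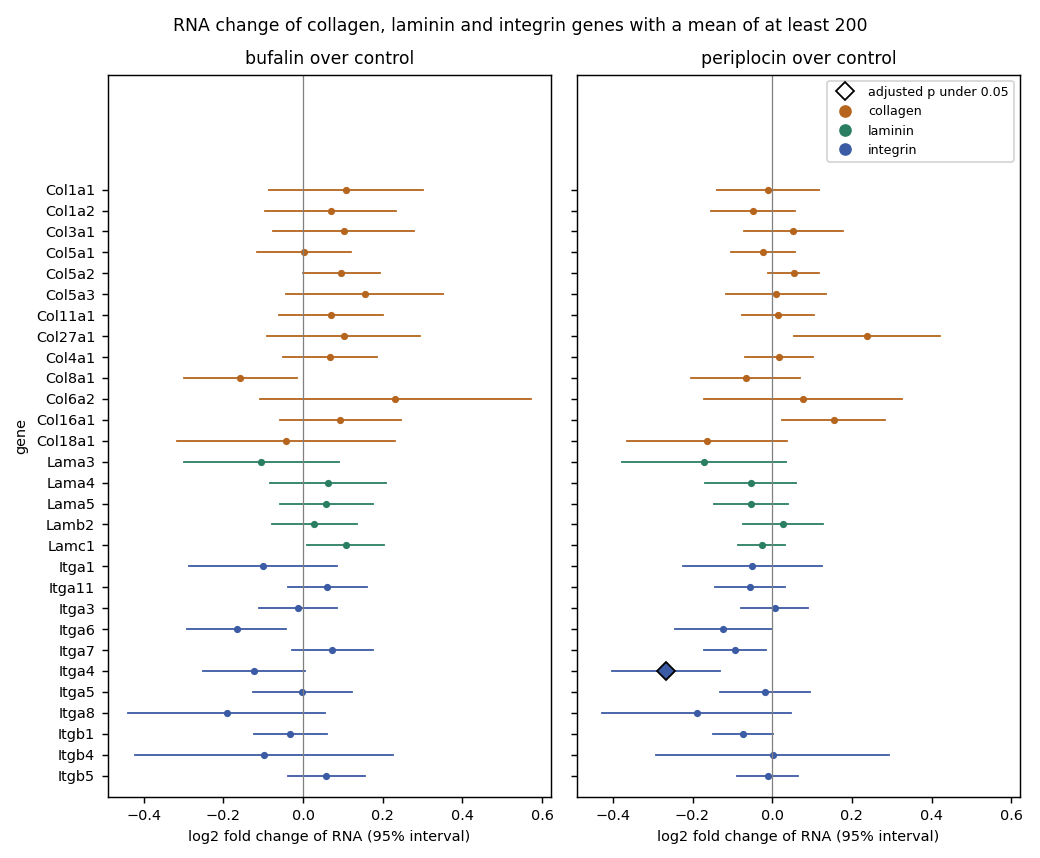
Log2 fold change of RNA against control (points, with 95% Wald intervals from the authors' standard errors) for the genes reported here whose mean was 200 or more normalized counts in both tables, with bufalin on the left and periplocin on the right. The single diamond is Itga4 with periplocin, at -0.27, the only one with an adjusted p under 0.05, and all 8 fibrillar collagens from Col1a1 to Col27a1 have bufalin points right of 0.

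Bufalin and periplocin are both cardiotonic steroids, which block the sodium and potassium pump. They differ in the lactone ring, which makes bufalin a bufadienolide and periplocin a cardenolide, and in the sugars that periplocin carries and bufalin lacks. Whether doses and times were matched is not known, so the test below sets the groups as given against each other. It was 1 pair of compounds over 10602 genes whose mean was 10 or more in both tables, with an approximate Wald test from the authors' estimates and Benjamini-Hochberg adjustment over those genes. Of the 42 genes tested, 0 differed at an adjusted p under 0.05, where 0.396% of all genes did. At an unadjusted p under 0.05 of this test there were 5, all higher with bufalin, where 6.34% of all genes passed and 3.1% were higher with bufalin.

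Itga7 had the smallest adjusted p, 0.0717 by this approximate Wald test, with bufalin minus periplocin at 0.17 ± 0.05 (SE, log2, interval 0.08 to 0.26). Lamc1, one of the chains that Itga7 binds in laminin, differed by 0.13 ± 0.04 (interval 0.05 to 0.21) with an adjusted p of 0.143 by the same test. Both estimates were above control with bufalin and below it with periplocin. The other 3 were Itga11 at 0.12 ± 0.05 (interval 0.02 to 0.21), Lama5 at 0.11 ± 0.05 (interval 0.01 to 0.22) and Itga4 at 0.14 ± 0.07 (interval 0.01 to 0.28), with adjusted p-values of 0.521 for Itga11, 0.733 for Lama5 and 0.714 for Itga4. The fall of Itga4 with periplocin alone is thus not shown to be particular to that compound. For Col1a1 the difference was 0.12 (interval -0.05 to 0.28) and for Itgb1 0.04 (interval -0.04 to 0.13), so differences of those sizes cannot be told from 0. The median difference was 0.05 over 17 collagens, 0.09 over 8 laminins and -0.02 over 17 integrins, against 0.00 over all genes.

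**Figure D2:**
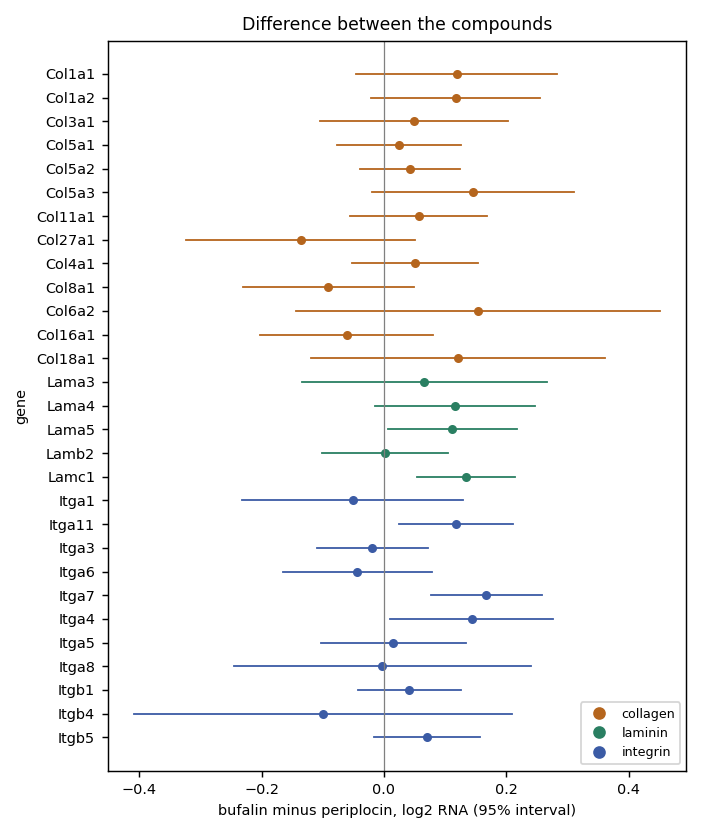
Difference of the log2 fold changes, bufalin minus periplocin (points, with 95% intervals), for the genes reported here whose mean was 200 or more normalized counts in both tables, coloured by family. The intervals of Itga7 (0.08 to 0.26), Lamc1, Lama5, Itga11 and Itga4 lie right of 0, and those of the collagens all cross it.

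The m6A peaks were listed per compound with the control, with the position, fold enrichment and change of each peak as the authors give them. The bufalin list held 52 peaks in 24 of these genes (22 peaks in 10 collagens, 11 in 5 laminins, 19 in 9 integrins), out of 9866. The periplocin list held 46 in 23 genes (17 in 9 collagens, 12 in 5 laminins, 17 in 9 integrins), out of 9170. By position and strand, 44 peaks overlapped by at least 1 base, 84.6% of the bufalin peaks of these genes and 95.7% of the periplocin ones, where 83.0% of all bufalin peaks and 89.4% of all periplocin peaks overlapped. The lists share control libraries, so the overlap was not tested.

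Where the mean was 1000 or more normalized counts, 23 of 27 of these genes carried a peak in the bufalin list (85.2%), against 67.6% of all genes. In the periplocin list 22 of 27 did (81.5%), against 65.6%. At a mean of 10 or more the shares were 55.8% against 47.8% in the bufalin list and 53.5% against 45.5% in the periplocin list. The shares were not tested, and genes above such a limit still differ in level. Col3a1, Col5a3, Lama5 and Itga7 had a mean of 1000 or more in both tables and no peak in either list. Col3a1 thus had none, with a fitted 87361 normalized counts in bufalin cells and 81422 in control cells, while Col1a1 and Col1a2 had 1 each in both lists. Itgb1 had the most peaks, 6 in the bufalin list and 5 in the periplocin list. Lamc1 had 4 in each, and Col11a1 had 4 in the bufalin list and 2 in the periplocin list.

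High enrichment was frequent in the receptor alpha chains. Of the alpha chain peaks, 8 of 12 in the bufalin list (66.7%) and 8 of 11 in the periplocin list (72.7%) were enriched at least 2-fold. Among the ligand peaks it was 8 of 33 (24.2%) and 6 of 29 (20.7%), and among all peaks 37.3% and 35.9%. Beta chain peaks reached it in 1 of 7 (14.3%) and 1 of 6 (16.7%), so the high shares were those of the alpha chains only. Peaks of 1 gene share its transcript and are no replicates, so the shares are a description. The highest value of these families was that of the 399-base peak of Itga4, chr3:66263946-66264344 on the plus strand of build rn6, 3.41-fold in the bufalin list and 3.38-fold in the periplocin list. The Itga5 peak at chr7:144970544-144971093 (minus) had 3.21-fold and 3.08-fold in the same lists. The largest value of Itga3 was 2.85-fold and 2.77-fold, at chr10:82856287-82856733 (minus). These peaks of Itga4, Itga5 and Itga3 were single blocks, without an intron inside, while that of Itga1, 2.50-fold and 2.30-fold, had 2 blocks.

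Some ligand peaks reached like values. Col8a1 had 3.18-fold in the bufalin list and 3.23-fold in the periplocin list at chr11:45000716-45004514 (plus), a peak of 2 exon blocks. Lamc1 had 2.58-fold and 2.66-fold at chr13:70659222-70659472 (minus), where its other 3 peaks lay between 1.46-fold and 1.67-fold. In Itgb1 the peak at chr19:61724647-61724845 had 2.93-fold in the bufalin list and 2.58-fold in the periplocin list, and its other peaks lay between 1.10-fold and 1.93-fold. In Lamc1 and Itgb1, 1 peak thus stood above all others of the gene in both lists. Type I collagen peaks were lower, 1.76-fold and 1.60-fold for Col1a1 and 2.13-fold in both lists for Col1a2.

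**Figure D3:**
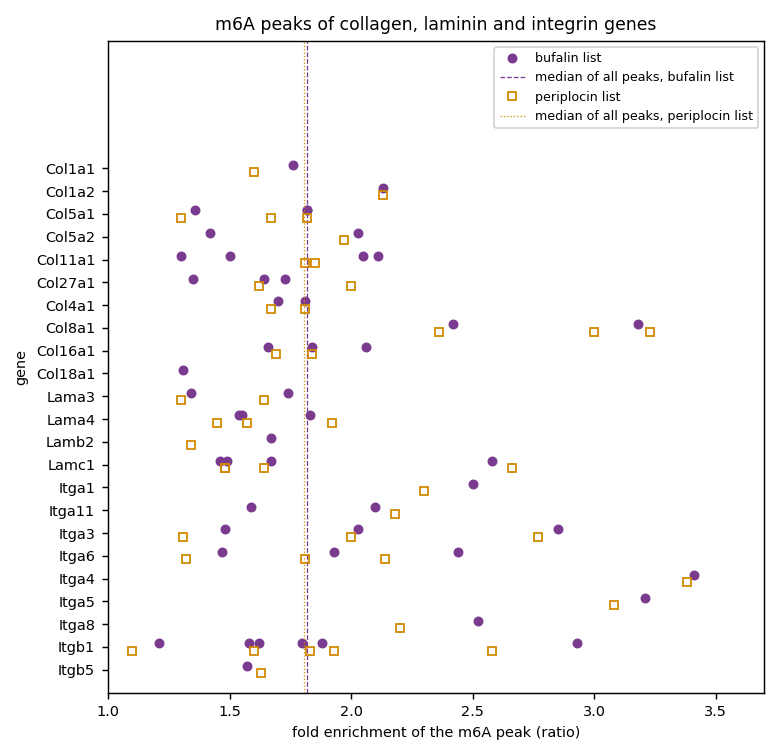
Fold enrichment (ratio) of every m6A peak in the genes reported here that had one, filled circles for the bufalin list and open squares for the periplocin list, with the median of all peaks of each list as a vertical line. Peaks of Itga4, Itga5 and Col8a1 lie above 3, and the laminin peaks other than 1 of Lamc1 in each list lie below 2.

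Many ligand peaks spanned introns: 22 of 33 in the bufalin list (66.7%) and 20 of 29 in the periplocin list (69.0%) had several exon blocks, against 1 of 12 and 1 of 11 alpha chain peaks and 44.3% and 44.4% of all peaks. Of the beta chain peaks, 3 of 7 (42.9%) and 3 of 6 (50%) had several, near the shares of all peaks. The blocks between the first and the last of a peak are whole exons of the gene model used. Exons that code for the triple helix are known to be built from units of 9 bases, 1 per Gly-X-Y triplet, with 54 bases as the common length in fibrillar collagens. Of 23 different interior exons in the collagen peaks, 21 (91.3%) had a length that is a multiple of 9 bases and 8 had exactly 54. In genes outside the 3 families 484 of 3190 interior exons (15.2%) were multiples of 9 and 34 (1.07%) had 54 bases. The collagen exons of 54 bases lay in Col5a1, Col11a1 and Col27a1, for example at chr3:6524864-6524917 of rn6 in Col5a1, while the 2 exons that are no multiple of 9 were 93 bases in Col11a1 and 39 bases in Col16a1. The length of these exons belongs to the genes and not to the treatment.

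**Figure D4:**
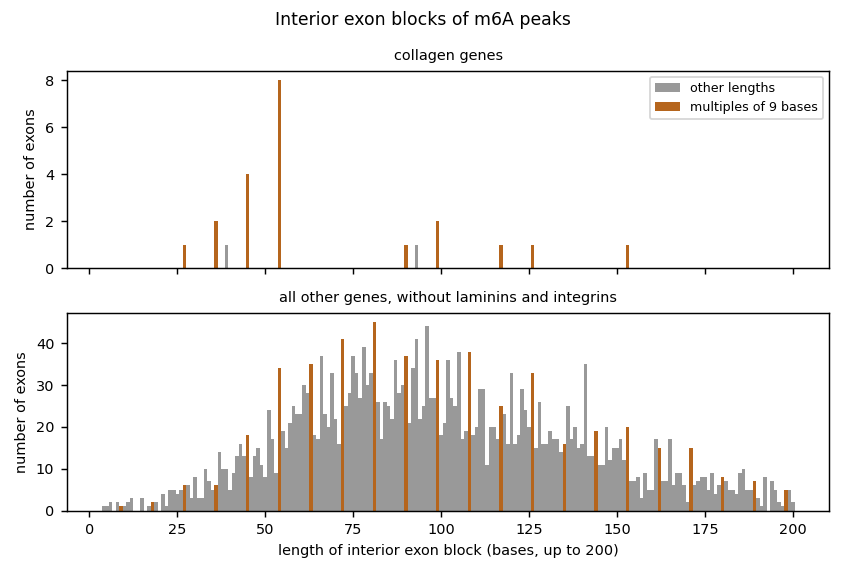
Number of different interior exon blocks in m6A peaks by length in bases, up to 200, for collagens (top) and for genes outside the 3 families (bottom), with multiples of 9 bases in colour. The collagen bars stand at multiples of 9 for 21 of 23 exons, the highest at 54 bases with 8, while the other genes peak more broadly.

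The change of m6A is given without a stated direction and is read here as treated over control. None of the peaks of these genes passed an FDR of 0.05, 0 of 52 with bufalin and 0 of 46 with periplocin, where 0.0304% and 0.0436% of all peaks did in the authors' deposited lists. At an unadjusted p under 0.05 there were 0 of 52 with bufalin, where 3.04% of all peaks passed, and 1 of 46 with periplocin, where 3.37% did. That peak was in Col5a1, chr3:6524308-6530506 (plus), with a log2 change of 0.24 (p = 0.0186) in the authors' deposited list. The smallest p with bufalin was that of the Itga4 peak, 0.0550, with a log2 change of 0.15 in the authors' deposited list. With periplocin the change of the Itga4 peak was 0.19 (unadjusted p = 0.332) in the authors' deposited list, beside the fall of its RNA by 0.27. An m6A change of that peak is thus not shown.

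Read as treated over control, peak changes were above 0 in 31 of 52 and below 0 in 21 with bufalin, where 4451 of all 9866 were above 0. With periplocin 25 of 46 were above 0 and 21 below, where 4370 of all 9170 were above 0. With the direction turned these counts change places, and they were not tested. The Itga8 peak had 0.46 with bufalin and 0.44 with periplocin in the authors' deposited lists (log2), and the Itga1 peak -0.36 and -0.55. None of these values has an unadjusted p under 0.05, and the 2 lists share controls. The mean change per gene lay between -0.36 and 0.46 in the 24 genes of the bufalin list and between -0.55 and 0.44 in the 23 of the periplocin list. RNA changes of these genes were at most 0.27 in size. The peak changes are given without errors, so their spread was not compared with that of RNA.

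**Figure D5:**
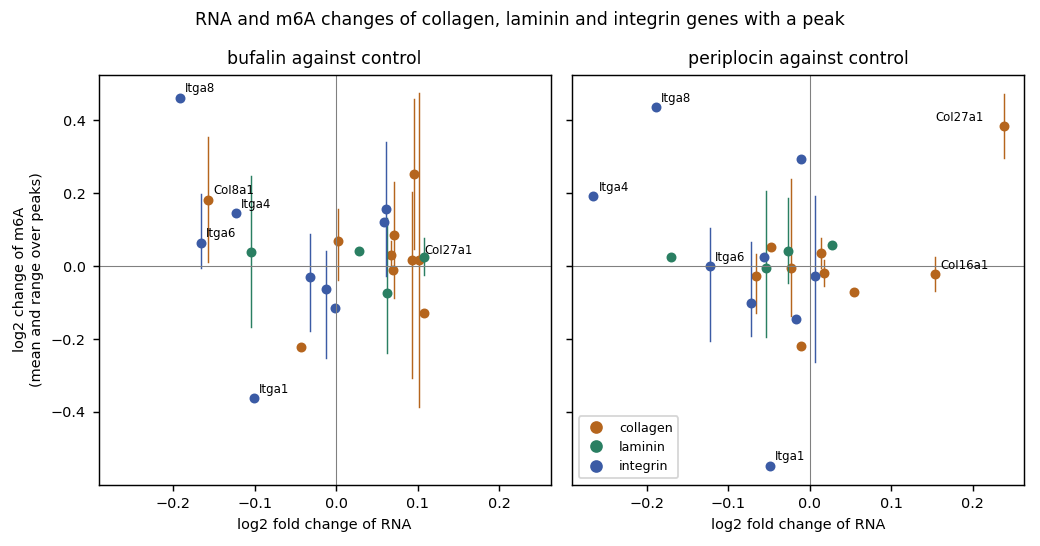
Log2 change of m6A (points, the mean over a gene's peaks, with a bar over their range) against the log2 fold change of RNA for the genes reported here with a peak, with bufalin on the left and periplocin on the right. Itga4 with periplocin lies at an RNA change of -0.27 and a peak change of 0.19 that did not pass the test, and Itga1 lies lowest in m6A with both compounds.

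Genes around the matrix were read from 5 lists of pathway genes. Of the genes that make and cross-link collagen, 20 were given an adjusted p in the bufalin comparison and 26 in the periplocin comparison, and 0 passed. At an unadjusted p under 0.05 of the DESeq2 test, among the 25 whose mean was 10 or more, there were 1 higher and 1 lower with bufalin, where 3.24% of all genes were higher and 2.07% lower. With periplocin 0 of 25 were higher and 3 lower, where 4.25% of all genes were higher and 2.28% lower. Fkbp14, a folding enzyme of procollagen, stood at -0.22 ± 0.07 (log2) with periplocin in the authors' deposited table (adjusted p = 0.129, DESeq2 Wald test), and P4ha3, a prolyl hydroxylase subunit, at -0.12 ± 0.05 (adjusted p = 0.602).

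Among other matrix proteins, 1 of the 14 with an adjusted p rose and 1 fell with bufalin, where 0.301% of all genes passed. With periplocin 1 of 20 rose, where 0.538% of all genes passed. With bufalin, Spp1, the integrin ligand osteopontin, rose by 0.56 ± 0.11 (adjusted p = 0.000202) and Ccn2, a matrix-associated ligand of integrins, fell by 0.28 ± 0.07 (adjusted p = 0.00870), on the log2 scale in the authors' deposited table (DESeq2 Wald test). With periplocin, Thbs1, the adhesive protein thrombospondin 1, rose by 0.23 ± 0.05 (adjusted p = 0.000264) there. These ligands passed the test, whereas the collagens and laminins did not. The list was chosen with earlier results of these data known, so its shares and this contrast are a description and were not tested.

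Of the non-integrin receptors of collagen and laminin, 12 were given an adjusted p in the bufalin comparison and 18 in the periplocin comparison, and 0 passed. At an unadjusted p under 0.05 of the DESeq2 test 5 of 18 were higher and 1 lower with bufalin, against 3.24% and 2.07% of all genes, and 0 were higher and 1 lower with periplocin, against 4.25% and 2.28%. The share with bufalin is above that of all genes, and the list was not tested. Cd44, which binds hyaluronan and collagen, stood at 0.21 ± 0.07 (adjusted p = 0.134) and Mrc2, an uptake receptor of collagen, at 0.16 ± 0.05 (adjusted p = 0.226) with bufalin in the authors' deposited table (DESeq2 Wald test). Of the adhesion machinery inside the cell, 25 genes were given an adjusted p in the bufalin comparison and 38 in the periplocin comparison, and 0 passed. By the same test at an unadjusted p under 0.05, 1 of 34 genes whose mean was 10 or more was higher and 1 lower with bufalin, and 2 were higher and 1 lower with periplocin, beside the same shares of all genes. Tns2, a tensin of focal adhesions, stood at 0.23 ± 0.06 with periplocin in the authors' deposited table (adjusted p = 0.0611, DESeq2 Wald test), and Vasp, an actin-binding adhesion protein, at -0.13 ± 0.06 (adjusted p = 0.616). Of the matrix proteases and inhibitors, 9 were given an adjusted p in the bufalin comparison and 26 in the periplocin comparison, and 0 passed. By the DESeq2 test at an unadjusted p under 0.05, 2 of 23 whose mean was 10 or more were lower with bufalin, where 2.07% of all genes were, and 0 of 23 passed with periplocin. They were Timp3, an inhibitor of matrix proteases, at -0.96 ± 0.47 and Mmp23, a membrane-bound protease, at -1.02 ± 0.52 in the authors' deposited table (DESeq2). Neither had an adjusted p with bufalin, and both had a mean under 200 normalized counts.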

How the data were processed

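The series holds MeRIP-seq of H9c2 cells in 18 samples and 6 labelled groups. The library kit kept strand and used molecular identifiers, per the labels' protocols. HISAT2, StringTie, DESeq and build rn6 are named per the submitters' processing notes, without versions. Not given in the sources used here are the peak caller and the kind of library counted, IP or input.

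The signal in the deposited expression tables is a mean normalized count, the column that DESeq2 calls baseMean per the file headers. The log2 fold changes, their standard errors, p-values and adjusted p-values are the authors' per the file headers, and the score in them was read as the Wald statistic of the authors. Each fold enrichment ratio of a deposited peak was read as IP over input. The log10 values of the deposited peak lists are those of p and FDR. Depth per library was not analysed here.

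Direction was worked out from both tables. Read as treated over control, fitted control levels of the 2 tables differed, once an offset of 0.05 (log2) was taken out, by less than 1% in all 10602 genes, and the sign of the periplocin score was opposite to its fold change in all 12913 genes. Fitted levels came from the mean and fold change with groups of equal size. The planned count test between the compounds needs counts per sample, so an approximate Wald test was used instead. Its standard error was rebuilt from the 2 deposited errors with the shared controls cancelled.

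Genes named with values were those with an adjusted or unadjusted p under 0.05, the 6 collagens, 4 laminins, 6 alpha and 3 beta chains with the highest mean count (planned per kilobase, for which no transcript length was used here), those with most peaks, partner chains and, per pathway list, called genes or otherwise the 2 with the smallest p. Itga8, Itga1, Col5a3, Lama3 and Lama4 were added after their values were seen. A gene that the rule takes and the text does not name is not reported here, and all counts and medians include it. The genes and lists were chosen with earlier results of these data known. Alternatives covered thresholds, adjustment, count filters, standard errors, enrichment and overlap. Peaks carry no exon or UTR annotation and no sequence here, since no rn6 genome was used. GRCr8 served for promoters only. Scripts ran on Python 3.11.15 with scipy 1.17.1, pandas 2.3.3, numpy 2.4.6 and, for figures, matplotlib 3.10.9.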

Additional observations from a re-analysis of the deposited data

How the results depend on the processing

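No paired analysis was possible because the deposited tables hold comparisons and no values per sample. For the same reason no replicate could be left out, and the fit with a replicate block was not run. Of 33 alternatives for the counts and medians of these families, 30 were labelled as a like value. For medians this says little. They moved by less than the median SE of single genes, which was 0.09 for the integrins with bufalin, whose median was -0.0018. Every peak of these genes had an FDR of the change far above 0.1, so the counts of 0 called peaks could not rise. The 42 for single genes changed only the adjustment, the count filter or the SE. Their directions could therefore not turn, and all 42 kept their side of the threshold. With peaks of at least 2-fold enrichment only, 14 of 43 genes whose mean was 10 or more had a peak in the bufalin list and 12 of 43 in the periplocin list, in place of 24 and 23, since fewer peaks were counted. At an adjusted p under 0.1, 1 gene differed between bufalin and periplocin, Itga7, in place of 0. With the upper limit of the standard error, which ignores the shared controls, the adjusted p of the Itga7 difference was 0.9999 and the smallest unadjusted p of these genes 0.0106. The adjusted p of Itga4 with periplocin lay between 0.0245 and 0.0270 under the other adjustments. The median of the integrins with bufalin, -0.0018, was 0.01 over all with a p-value and -0.03 at a mean of at least 200, so it has no settled sign. The median of the collagens with periplocin, 0.05, was 0.01 at a mean of at least 200. In the bufalin table an adjusted p was present only for genes with a mean of at least 2259, which limits calls of genes with lower counts.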
